A study of Mus musculus with 8 samples.

Results

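Msr1, Marco, Cd36, Scarb1, Mrc1 and Stab1 encode scavenger receptors of macrophages, and the rows of these 6 symbols, out of 21080 symbols measured, were followed through every sample. The rule that picked them gives symbols and no measured value, but the choice was made with earlier results of these data known. RNA-seq came from bone marrow-derived macrophages (BMDMs, cells grown out of mouse bone marrow with the growth factor M-CSF) of WT and Nudt21-cKO mice, the latter carrying floxed Nudt21 alleles and Cre recombinase expressed from the LysM locus, which is active in myeloid cells. WT mice were sex-matched littermates that also carried LysM Cre, so the Cre was shared by all groups. Both genotypes were sampled unstimulated (0 h) and after overnight IFNγ with LPS for a further 4 h, which gave 4 groups of 2 samples and 8 in all. Each sample pooled the BMDMs of a pair of mice. The labels give the stimulation for the 0 h samples too, and these were taken as untreated from their titles.

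Scavenger receptors are surface proteins that bind modified lipoproteins, bacteria, polyanions and dying cells and carry them into the macrophage. Msr1 and Marco are class A receptors, Cd36 and Scarb1 are class B receptors that handle fatty acids, oxidised LDL and HDL cholesterol, Mrc1 is the mannose receptor, and Stab1 clears altered proteins and cell remnants. Nudt21 is a subunit of the cleavage factor that binds UGUA in the 3′ ends of transcripts and guides the choice of polyadenylation site.

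The genes were placed on GRCm38 with GENCODE M21. Msr1 spans chr8:39581685-39642673 and Marco chr1:120474538-120505024, both on the minus strand. Cd36 spans chr5:17781690-17888801 and Scarb1 chr5:125277087-125341094, both on the minus strand. Mrc1 spans chr2:14229392-14332057 on the plus strand and Stab1 chr14:31139013-31168641 on the minus strand. The 3′UTRs were taken from the transcript matched to RefSeq, and TGTA, the DNA spelling of UGUA, was counted on the transcribed strand only. The annotated 3′UTR of Msr1 was 2518 bases long with 20 TGTA, that of Cd36 1660 bases with 9, that of Mrc1 882 bases with 8 and that of Scarb1 779 bases with 4. Those of Marco and Stab1 were short, 121 and 134 bases, and held no TGTA. The matched Msr1 transcript ends upstream of the outer limit of the gene, where longer transcripts run on.

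Per kilobase, Mrc1 (9.07) and Msr1 (7.94) had more TGTA than the median of 4.85 over 19271 genes with a 3′UTR, at percentiles 86.1 and 80.1. Cd36 had 5.42 and Scarb1 5.13 per kilobase, near that median. Such matches were common, since 84.0% of 14526 genes with a 3′UTR of at least 300 bases held TGTA in their last 300 bases. For the 4 genes with a match, 30 bases are shown on the transcribed strand, because that motif is the one Nudt21 recognises. They surround the last TGTA that leaves a full window before the annotated end, and this match is in capitals. The Cd36 window also opens with an earlier TGTA, left in lower case.
Msr1: aatgaaaataaagTGTActtgctttgattt
Cd36: tgtatgagaaggtTGTAgaggagaaaggag
Scarb1: ccccggcatctagTGTAcctcaccagaggg
Mrc1: aagatgaacaactTGTAgataaatgccaac
The Msr1 window lies at chr8:39603467-39603496 in exon 9 and its motif stands 30 bases before the annotated end. The Cd36 window lies at chr5:17781721-17781750 in exon 15, 48 bases before the end, the Scarb1 window at chr5:125277203-125277232 in exon 13, 133 bases before it, and the Mrc1 window at chr2:14332007-14332036 in exon 30, 38 bases before it. The last 50 bases held the polyadenylation signal AATAAA in Msr1 and Scarb1 and ATTAAA in Cd36, and neither spelling in Mrc1. A match of these letters describes the sequence and was not tested as a binding site.

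The deposited value was read as the mean read coverage per base of a gene, which corrects for length but not for the size of a library. No header names this unit, and it was inferred from the values. Summed over genes it ranged from 14950347 to 17954882 per sample, and the tables do not give the number of reads behind a value. The median gene was nevertheless lower at 4 h, by a log2 difference of -1.24 in WT and -1.03 in cKO on the deposited scale. Each sample was therefore divided by 1 factor, its median ratio to the typical sample, from 1.38 to 1.55 at 0 h and from 0.603 to 0.793 at 4 h. All levels below are scaled coverage per base. Folds between the times depend on this step, and values under other scalings are given with them.

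Nudt21 itself stood at 518 and 465 in WT against 110.1 and 111 in cKO at 0 h, and at 906 and 839 in WT against 181 and 145 in cKO at 4 h. Every cKO sample was below every WT sample. Its log2 fold change was -2.15 at 0 h (SE 0.14, adjusted p = 0.0042) and -2.43 at 4 h (SE 0.14, adjusted p = 0.0021), both from limma with Benjamini-Hochberg adjustment over 16125 genes.

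The 7 macrophage markers (Adgre1, Csf1r, Cd68, Itgam, Lyz2, Fcgr1 and Mertk) were present in every sample and summed to between 78548 and 92069. Within them Adgre1 (F4/80) and Fcgr1 were called lower in cKO at both times and Csf1r at 0 h, and Cd68 was called higher at 4 h. At 0 h the Adgre1 call was lost without any 1 library, on the deposited scale and with equal totals, and the Csf1r call without 6 of the 8 libraries and on the deposited scale. At 4 h the Fcgr1 call was lost without 5 of the 8 libraries and under all 3 other scalings, and the Adgre1 call without 5 and on the deposited scale. Endothelium, which also uses several of these receptors, was low by its 8 markers, with sums between 253 and 601, most of it Vwf (80.6 to 423), Pecam1 and Kdr, while Tek, Emcn and Lyve1 were at or below 1.53 in each sample. Within that list Kdr, a VEGF receptor, was called higher in cKO at both times, with means of 15.3 in WT and 61.7 in cKO at 0 h and 51.7 and 141 at 4 h, and the adhesion molecule Pecam1 was called lower at both, with 109 against 45.2 and 47.2 against 18.8. The 6 dendritic cell markers summed to at most 34.0 at 0 h, and at 4 h to between 2039 and 2851 in WT against 1314 and 1372 in cKO. That sum was mostly Clec9a (adjusted p = 0.27 at 4 h, limma), and the single call was Xcr1, 29.0 and 76.4 in WT against 5.89 and 2.93 in cKO at 4 h. The 8 neutrophil markers summed to between 17300 and 32544 over the samples, mostly S100a8 and S100a9, with Ly6g at or below 6.82. The 6 megakaryocyte and platelet markers, mostly Pf4, lay between 2467 and 3540 in WT against 2005 and 2144 in cKO at 0 h and between 1563 and 1797 at 4 h. Within these last 2 lists the lowest adjusted p between genotypes was 0.0857 (Mpo at 4 h, limma). Sums were at most 146 for T and NK cells, 104 for B cells, 195 for stroma and 34.1 for erythroid cells. The 6 osteoclast markers summed to between 804 and 1058 in WT and between 1484 and 1686 in cKO at 0 h, and to between 1503 and 1621 in WT and between 2566 and 2864 in cKO at 4 h. That rise lay in Ctsk at both times and Acp5 at 4 h, while Calcr and Oscar stayed at or below 3.22. Among all these marker calls, that of Ctsk at 4 h held without any 1 library and each of the others was lost without at least 1. The part of these differences in the receptor results was not tested.

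In unstimulated BMDMs, Msr1 and Stab1 were lower in cKO than in WT, Marco, Scarb1 and Mrc1 lay below WT without passing the test, and the Cd36 values overlapped. After IFNγ and LPS, Msr1, Scarb1 and Mrc1 were lower in cKO. Without passing the test there, Marco lay below WT and Stab1 above it. A gene was called when its fold exceeded 1.5 with an adjusted p under 0.05. At 0 h 2 of the 6 receptors were called, both lower in cKO, beside 2.25% of all tested genes called lower and 2.75% called higher. At 4 h 3 of the 6 were called, each lower, beside 6.02% called lower and 7.99% called higher. By the rule in the study's methods, which uses the unadjusted p, 5 were lower at 0 h and 4 at 4 h, beside 6.31% and 9.28% of genes. All samples of cKO lay below all of WT for 5 of the 6 at 0 h and 4 at 4 h, beside 29.6% and 29.4% of genes. The median log2 fold change of the 6 was -0.70 at 0 h and -0.99 at 4 h, against 0 over all genes at both times. Because the 6 were chosen with earlier results of these data known, these comparisons with all genes are descriptive only. The smallest p that an exact two-sided permutation test allows for 2 samples against 2 is 0.333, so each limma test leans on a model. That model used the gene's own spread pooled over the 4 groups, with 4 degrees of freedom. Moderation across genes raised these to 5.03. In a fit to the 4 samples of a time only, none of the 6 was called at either time, with an adjusted p of 0.0651 for Msr1 at 4 h. The p-values measure the spread between these pooled samples. In bulk RNA, fewer cells that express a receptor and less of its RNA per cell cannot be told apart. Coverage averaged over a gene also depends on the length of its 3′UTR, and the part of 3′UTR length in these differences was not tested.

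**Figure D1:**
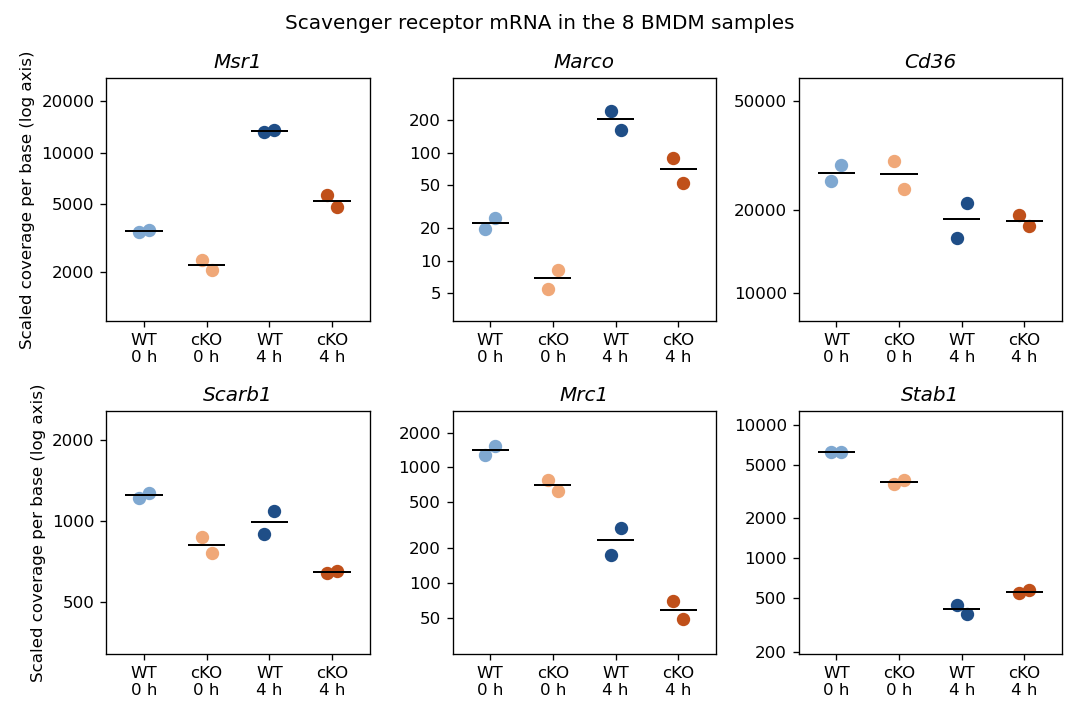
Scaled coverage per base (log axis) of each receptor in the 8 samples, by genotype and time, with points for samples and bars for group means. Msr1 rises at 4 h from 3398 and 3517 to 13292 and 13643 in WT and stays lower in cKO, whereas Stab1 drops in both genotypes and its cKO samples go from below WT at 0 h to above WT at 4 h.

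Msr1, the class A receptor for acetylated LDL and bacteria, stood at 3398 and 3517 in WT against 2331 and 2046 in cKO at 0 h. At 4 h it stood at 13292 and 13643 in WT against 5656 and 4798 in cKO. The genotypes did not overlap at either time. The log2 fold change was -0.66 at 0 h (SE 0.12, adjusted p = 0.0495, limma) and -1.37 at 4 h (SE 0.12, adjusted p = 0.0057), which is a 2.59-fold lower level in cKO. The 4 h call held without any 1 of the libraries. The 0 h call sat at the threshold and was lost without any 1 of the 8 libraries, with adjusted p from 0.0717 to 0.222. It was also lost on the deposited scale (adjusted p = 0.092), with equal totals (0.0924) and with no filter on low genes (0.062). The genotype effect at 4 h minus that at 0 h was -0.71 (SE 0.17, adjusted p = 0.104) and did not pass the test.

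Marco, the other class A receptor and a binder of bacteria and particles, was by far the least abundant of the 6 at 0 h. Its scaled coverage was 19.9 and 25.0 in WT against 5.52 and 8.25 in cKO at 0 h, and 245 and 164 in WT against 90.4 and 52.4 in cKO at 4 h. The cKO samples were below the WT samples at both times, but replicates of a group differed more than those of Msr1. The log2 fold change of -1.71 at 0 h (SE 0.38, adjusted p = 0.0747, limma) and of -1.54 at 4 h (SE 0.38, adjusted p = 0.052) did not pass. Over the alternatives, the adjusted p ranged from 0.0279 to 0.269 at 0 h and from 0.0212 to 0.185 at 4 h.

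Cd36, the class B receptor for oxidised LDL and long-chain fatty acids, was the most abundant of the 6 in every sample. It measured 25609 and 29320 in WT against 30223 and 23936 in cKO at 0 h, and 15841 and 21255 in WT against 19204 and 17494 in cKO at 4 h. The genotypes overlapped at both times. The 95% interval of the log2 difference, from limma, ran from -0.54 to 0.49 at 0 h and from -0.51 to 0.51 at 4 h. Differences within these bounds are compatible with these samples, and the bounds are not a limit of detection.

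Scarb1, the class B receptor that takes up cholesterol from HDL, was 1216 and 1275 in WT against 872 and 762 in cKO at 0 h, and 897 and 1094 in WT against 643 and 653 in cKO at 4 h. Every cKO sample lay below every WT sample of its time. The log2 fold change was the same at both times, -0.61 (SE 0.13), with an adjusted p of 0.0716 at 0 h and 0.0382 at 4 h from limma. The 4 h fold of 1.53 was close to the threshold. That call was lost under all 3 other scalings, where the log2 fold change was -0.53 with equal totals, -0.51 with quantile normalization and -0.32 on the deposited scale. With no filter on low genes the call was lost too (adjusted p = 0.0528, limma). It was also lost without any library other than WT replicate 1 at 4 h, with adjusted p from 0.065 to 0.147.

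Mrc1, the mannose receptor and a common marker of alternatively activated macrophages, was 1279 and 1526 in WT against 775 and 630 in cKO at 0 h, and 176 and 299 in WT against 69.6 and 48.8 in cKO at 4 h. The genotypes did not overlap at either time. At 4 h the level was 3.93-fold lower in cKO (log2 fold change -1.97, SE 0.32, adjusted p = 0.02, limma). At 0 h the log2 fold change of -1.0 (SE 0.32, adjusted p = 0.159) did not pass. Leaving out any 1 of the 4 cKO libraries raised the adjusted p at 4 h to between 0.051 and 0.0996. The genotype effect at 4 h minus that at 0 h was -0.97 (SE 0.46, adjusted p = 0.294).

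Stab1, stabilin-1, was 6216 and 6298 in WT against 3629 and 3881 in cKO at 0 h, and 449 and 383 in WT against 547 and 578 in cKO at 4 h. Replicates lay close together, and the order of the genotypes turned over between the times. The log2 fold change was -0.74 at 0 h (SE 0.11, adjusted p = 0.032, limma) and 0.44 at 4 h (SE 0.11, adjusted p = 0.0535), where the groups were apart but the fold of 1.36 and the adjusted p both missed the rule. On the deposited scale the 4 h value was 0.74 (adjusted p = 0.0141) and Stab1 was called higher. The genotype effect at 4 h minus that at 0 h was 1.18 (SE 0.15, 95% interval 0.78 to 1.57, adjusted p = 0.0344), beside 2.96% of genes called in that comparison. Stab1 was the only one of the 6 to pass it. Both the 0 h call and this call were lost without any 1 of the WT 0 h or cKO libraries, with adjusted p from 0.0757 to 0.154 and from 0.0838 to 0.121, while the direction stayed the same.

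Stab1 overlaps Nt5dc2, a gene on the opposite strand, over 112 of 10288 exonic bases, and the counting is not stated to use strand. Nt5dc2 was 1282 and 1139 in WT against 822 and 788 in cKO at 0 h, and 114 and 132 in WT against 161 and 151 in cKO at 4 h. Its values crossed over between the times too, with log2 fold changes of -0.59 (adjusted p = 0.0578, limma) and 0.34 (adjusted p = 0.106), neither called. The part of shared reads in these values was not tested. Scarb1 also overlaps Gm42633 and Mrc1 the microRNA gene Mir511, both on the same strand.

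**Figure D2:**
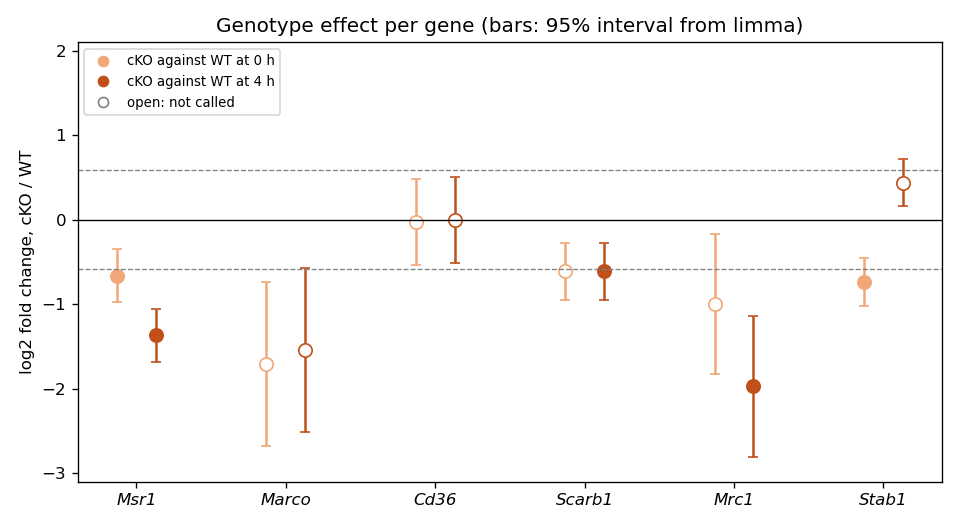
Genotype effect (log2 of cKO over WT) on each receptor at 0 h (light) and 4 h (dark), with 95% intervals from limma; filled points were called, and dashed lines mark a fold of 1.5. The points of Msr1, Marco, Scarb1 and Mrc1 lie below 0 at both times, those of Cd36 lie at -0.03 and 0, and Stab1 goes from -0.74 to 0.44.

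Stimulation separated the receptors. Msr1 and Marco rose and Mrc1 and Stab1 fell in both genotypes. Cd36 and Scarb1 did not pass the test under the median-ratio scaling used here, but were called lower under each of the other scalings. In each genotype 4 of the 6 were called, beside 53.6% of all genes in WT and 51.2% in cKO, so a share of this kind was near the background. Of the 6, 2 were called higher in each genotype, beside 25.9% of all genes in WT and 25.0% in cKO. In WT Stab1 fell the most of the 6: it fell by 3.92 on the log2 scale (15.1-fold, SE 0.11, adjusted p = 2.03e-05, limma), and it fell by 2.74 in cKO (6.68-fold, adjusted p = 4.6e-05). Mrc1 fell by 2.61 in WT (adjusted p = 0.0016) and fell by 3.58 in cKO (adjusted p = 0.00058), the steepest of the 6 there. Marco rose by 3.16 in WT (SE 0.38, adjusted p = 0.0014) and by 3.33 in cKO (adjusted p = 0.0013). Msr1 rose by 1.96 in WT (SE 0.12, adjusted p = 0.00015) and by 1.25 in cKO (adjusted p = 0.00072). Cd36 had log2 fold changes of -0.58 in WT (adjusted p = 0.0545) and -0.55 in cKO (adjusted p = 0.0635), and Scarb1 of -0.33 in both genotypes (adjusted p = 0.0837 and 0.0841).

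These folds moved with the scaling of the samples. On the deposited scale Cd36 was called lower at 4 h in both genotypes, with -1.68 in WT and -1.47 in cKO, and so was Scarb1, with -1.43 and -1.25. With equal totals or quantile normalization both were called lower as well. Msr1 in cKO was no longer called under any of the 3, with 0.34 on the deposited scale, 0.30 with equal totals and 0.10 with quantile normalization, and in WT it was not called with quantile normalization (0.55). Without WT replicate 2 at 4 h, Cd36 in WT was called at -0.79 (adjusted p = 0.0294, limma). In WT Msr1 was 0.86 on the deposited scale and 0.91 with equal totals. Marco was 2.06 deposited, 2.11 with equal totals and 3.43 with quantile normalization in WT, and 2.42, 2.38 and 3.66 in cKO. Mrc1 was -3.71, -3.66 and -3.05 in WT and -4.50, -4.54 and -3.69 in cKO, and Stab1 was -5.02, -4.97 and -4.63 in WT and -3.66, -3.70 and -3.57 in cKO. The direction of Msr1, Marco, Mrc1 and Stab1 held under every scaling, and so did the calls of Marco, Mrc1 and Stab1.

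**Figure D3:**
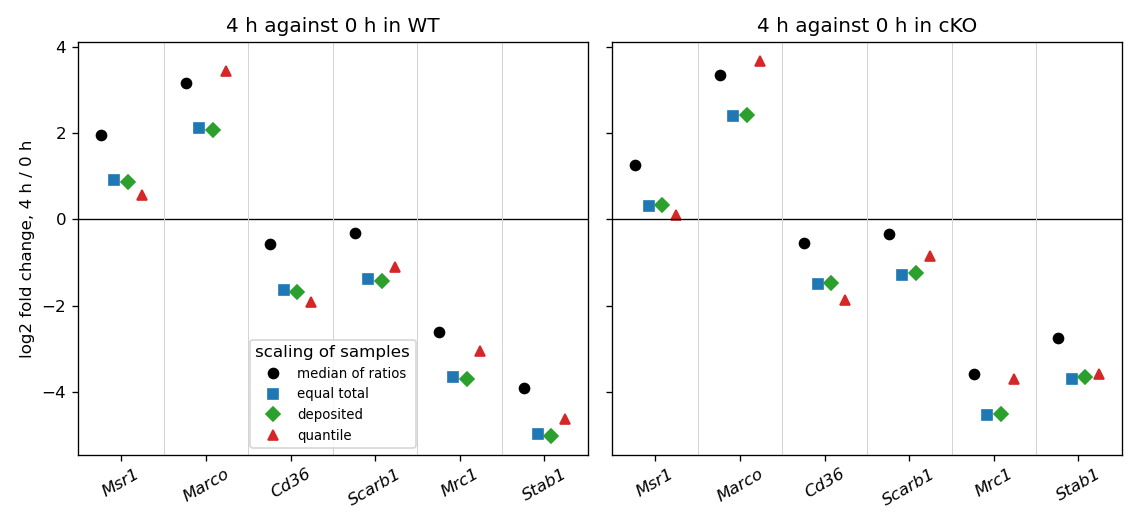
Log2 fold change of 4 h against 0 h for each receptor in WT (left) and cKO (right) under 4 scalings of the samples. Marco lies above 0 and Mrc1 and Stab1 below it under each scaling, whereas Msr1 in cKO moves between 0.10 and 1.25 and Scarb1 in WT between -1.43 and -0.33.

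Ratios within a sample stay the same under any scaling that divides the sample by 1 factor, so under all those used except quantile normalization. If the inferred unit is right, coverage per base lets the receptors be set beside each other as levels. Averaged over a transcript, it also depends on how much of the 3′UTR is present, which was not tested. In the matched Msr1 transcript the annotated 3′UTR took 2518 of 3636 bases. Cd36 made up 67.9% and 69.9% of the summed level of the 6 in WT against 79.9% and 76.6% in cKO at 0 h, and 51.3% and 57.7% in WT against 73.3% and 74.1% in cKO at 4 h. Msr1 made up 9.0% and 8.38% in WT against 6.16% and 6.54% in cKO at 0 h, and 43.0% and 37.0% in WT against 21.6% and 20.3% in cKO at 4 h. After stimulation Msr1 therefore approached Cd36 in WT more than in cKO. The ratio of Msr1 to Stab1 was 0.547 and 0.558 in WT against 0.642 and 0.527 in cKO at 0 h, where the genotypes overlapped. At 4 h it was 29.6 and 35.6 in WT against 10.3 and 8.31 in cKO, with no overlap. Stab1 to Mrc1 was 4.86 and 4.13 in WT against 4.68 and 6.16 in cKO at 0 h, where the genotypes overlapped. At 4 h this ratio was 2.56 and 1.28 in WT against 7.85 and 11.8 in cKO.

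The order of levels was Cd36, Stab1, Msr1, Mrc1, Scarb1 and Marco in WT at 0 h, with no overlap between neighbours. In cKO at 0 h Scarb1 and Mrc1 overlapped and the rest kept their places. At 4 h the order began with Cd36, Msr1, Scarb1 and Stab1 in both genotypes, and Mrc1 and Marco overlapped at the bottom. Among all 21080 symbols, Cd36 ranked between 32 and 41 at 0 h and between 142 and 279 at 4 h. Stab1 ranked 249 and 244 in WT against 436 and 407 in cKO at 0 h, and 4588 and 4891 in WT against 4139 and 3997 in cKO at 4 h. Marco climbed from between 10471 and 12454 at 0 h to between 5935 and 8975 at 4 h.

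The patterns of the 6 over the 8 samples were compared as the root mean square difference of log2 levels after each gene was centred on its own mean. Cd36 and Scarb1 were the closest pair at 0.33 and Marco and Stab1 the farthest at 3.39. Among 11907 genes with a mean of at least 10, the genes nearest to Msr1 were Trim34a, Hsd17b12 and Cdc14a (0.16 to 0.19), and those nearest to Stab1 were Nuak1, Zer1 and Ldlrad3 (0.13 to 0.17). Abca9, Slc9a9 and Ttc30b were nearest to Mrc1 (0.24 to 0.29), and Ms4a6c, Pdgfb and Glrx to Marco (0.37 to 0.44). Eogt, Dop1a and Akr1e1 were nearest to Cd36, and Btbd1, Gm47798 and Extl3 to Scarb1, all below 0.10.

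Other scavenger receptors were read from a list of 18, of which 15 were found and tested. At 0 h 2 were called higher in cKO and 1 lower, beside 2.75% and 2.25% of all tested genes, and at 4 h 3 higher and 1 lower, beside 7.99% and 6.02%. The median log2 fold changes were -0.41 and 0.08. Scarb2, a lysosomal class B relative of Cd36 and Scarb1, rose in cKO at both times, by 1.07 at 0 h (adjusted p = 0.0081, limma) and 1.15 at 4 h (adjusted p = 0.004). Cd68, a lysosomal glycoprotein, had 0.58 at 0 h (adjusted p = 0.0493), just under the fold of 1.5, and rose by 0.77 at 4 h (adjusted p = 0.0137). Cd44, the hyaluronan receptor, rose by 0.61 at 0 h, and Scarf2, a class F receptor, rose by 2.07 at 4 h. Cd5l, a secreted protein with scavenger receptor domains, fell by 1.2 at 0 h (adjusted p = 0.0216). Olr1, the receptor LOX-1 for oxidised LDL, fell by 2.14 at 4 h (adjusted p = 0.0032), from a mean of 1390 in WT to 315 in cKO. The calls of Scarb2, Scarf2 and Olr1 at 4 h held without any 1 library. Those of Cd44 and Cd5l were lost without any 1 of the WT 0 h or cKO libraries (adjusted p up to 0.149 and 0.124), that of Scarb2 at 0 h without either cKO library of that time (up to 0.0667), and that of Cd68 without cKO replicate 4 at 4 h (0.0664).

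**Figure D4:**
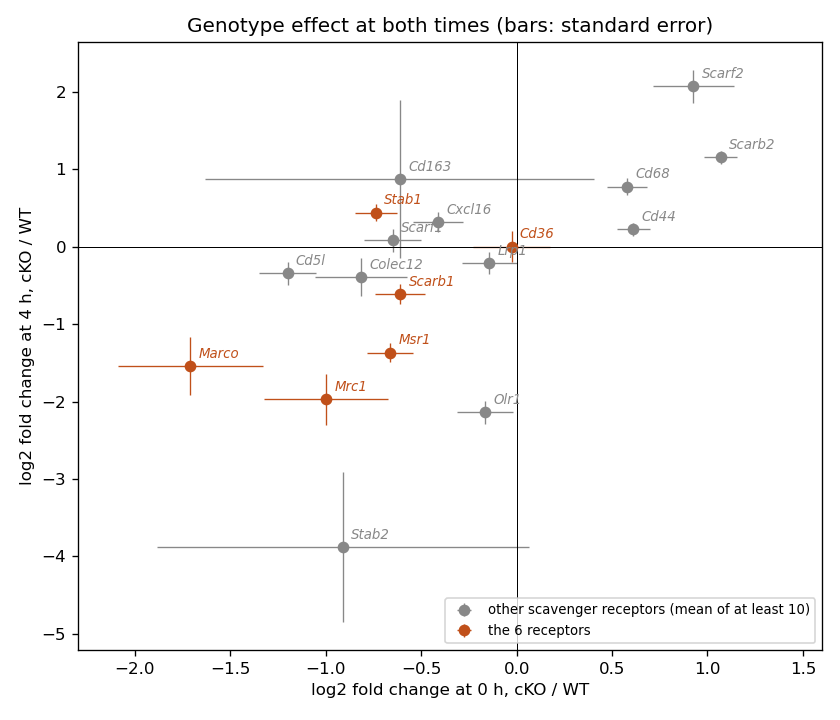
Genotype effect (log2 of cKO over WT) at 0 h (horizontal) and 4 h (vertical) for the 6 receptors and for the other scavenger receptors with a mean scaled coverage of at least 10, with standard errors. Marco, Mrc1, Msr1 and Scarb1 lie in the lower left, Stab1 in the upper left, Cd36 near the origin and Scarb2 at 1.07 and 1.15 in the upper right; Stab2 and Cd163 had wide errors.

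Genes that act beside these receptors in lipid handling were a list of 14. At 0 h none was called by limma, with 6 at an unadjusted p under 0.05 beside 22.6% of all genes, and at 4 h 3 were called higher in cKO, beside 7.99%. Lipa, lysosomal acid lipase, rose by 1.35 (adjusted p = 0.0071, limma) and Nceh1, a cholesteryl ester hydrolase, rose by 1.13 (adjusted p = 0.0063), and both held without any 1 library. Soat1, which esterifies cholesterol, rose by 0.68, a call lost without any 1 of the WT 4 h or cKO libraries (adjusted p up to 0.13).

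Of 12 transcription factors of macrophage lipid and lineage genes, none was called by limma at 0 h, with 3 at an unadjusted p under 0.05 beside 22.6% of all genes. At 4 h 2 were called higher in cKO and 2 lower, beside 7.99% and 6.02% of all tested genes. Rxra, the partner of many lipid-sensing nuclear receptors, rose by 0.90 and Klf4 rose by 1.98. Spi1, the macrophage factor PU.1, fell by 0.74 and Pparg, a nuclear receptor known to drive Cd36, fell by 1.2, with mean levels of Pparg of 156 in WT and 68.3 in cKO while Cd36 overlapped. The Pparg call was lost without any 1 of the WT or cKO 4 h libraries (adjusted p up to 0.131), on the deposited scale and with equal totals. The Spi1 call was lost without any cKO library (adjusted p up to 0.0959) and on the deposited scale, the Rxra call without either cKO library at 4 h (up to 0.0904), and the Klf4 call without cKO replicate 4 at 4 h (0.0667). Of 11 tested genes of alternative activation other than Mrc1, none was called by limma at 0 h, with 4 at an unadjusted p under 0.05 beside the same 22.6%. At 4 h 1 of the 11 was called, lower in cKO, beside 6.02% of all tested genes called lower. This was the lectin Clec10a, which fell by 1.98 (adjusted p = 0.0078, limma) and held without any 1 library.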

How the data were processed

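Paired-end RNA-seq of 8 BMDM samples was used. The authors aligned reads to GRCm38 (mm10) with HISAT2 2.2.1 and quantified RefSeq genes with StringTie 2.1.7, per the submitters' processing notes and the study's methods. What the authors deposited was a signal with the properties of mean coverage per base, in separate tables for 0 h and 4 h. No header gives its unit, which was inferred: for genes with a single transcript and a signal under 2, coverage times length gave a whole number of bases within 0.02 for 23.9% to 31.6% of genes per sample, against 4% by chance. The values were not scaled between samples. The authors' fold changes and p-values in the same tables were not used, and 0 per-sample columns were left aside.

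Each sample was divided by its median ratio to the gene-wise geometric mean over 12898 genes with signal in every sample. limma 3.58.1 in R 4.3.3 was fitted once to log2(scaled coverage + 0.1) in 4 groups over the 8 samples, for 16125 genes with a mean of at least 0.5, and p-values were adjusted by Benjamini-Hochberg over those genes. Fold changes are on this scale, so a pseudocount understates the change of low genes. The test was first checked on simulated data. A gene was called at a fold above 1.5 and an adjusted p under 0.05, and the change of the genotype effect between the times at an adjusted p under 0.05. Coverage is not a count, so the count tests foreseen for a count table were not run. Alternatives covered the scaling, pseudocount, filter, variance trend, samples in the fit, unadjusted p and replicate block.

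The 6 receptors were named in every comparison, from the lists other than cell type markers the genes called in a genotype comparison or its change between times, and for likeness the 3 nearest genes to each receptor. Members and lists were chosen with earlier results of these data known. A gene of the lipid handling list is not reported here and was left out of its counts. Of the samples nothing states which mice were shared between times. Positions and 3′UTRs came from GENCODE M21. No interval for counting error was computed, because the values are coverage and not counts of reads.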

Additional observations from a re-analysis of the deposited data

Results flagged for a closer look

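Of 131 listed genes tested, 6 (4.58%) were called by limma's test of the change in the genotype effect between the times, with Benjamini-Hochberg adjustment, beside 2.96% of all genes, and 5 of them had signal at both times. For Stab1 the log2 effect of cKO against WT was -0.74 at 0 h and 0.44 at 4 h, a difference of 1.18 (SE 0.155, adjusted p = 0.0344). For Olr1 it was -0.17 and -2.14, a difference of -1.98 (adjusted p = 0.0201). For the lectin Clec10a it was 0.58 and -1.98, a difference of -2.56 (adjusted p = 0.0243), and for the integrin subunit Itgav 1.31 and 0.14, a difference of -1.17 (adjusted p = 0.0342). Nos2, which makes nitric oxide, was listed at 0 in every 0 h sample, so its value of 0.84 (adjusted p = 0.0354) is its genotype effect at 4 h alone and cannot show a change between the times. For Ctsk, cathepsin K, from the osteoclast markers, it was 1.61 and 3.31, a difference of 1.70 (adjusted p = 0.0401). Without 1 library at a time, Olr1 kept its call in 4 of 8 fits, Stab1, Clec10a and Nos2 in 2, Itgav in 1 and Ctsk in 0, with the highest adjusted p at 0.0751 for Olr1, 0.121 for Stab1, 0.0924 for Clec10a, 0.14 for Nos2, 0.136 for Itgav and 0.14 for Ctsk. The Clec10a call was also lost with equal totals and the Ctsk call with quantile normalization.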

How the results depend on the processing

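Of 492 member results under alternatives, 393 kept direction and call, 28 became calls, 48 lost theirs and 23 changed sign. Of the 6 receptors 2 were called at 0 h, against 1 on the deposited scale, 1 with equal totals, 1 with no filter, 4 with quantile normalization, 4 with a mean of at least 5, 4 with an intensity trend, 0 with the samples of that time only, 5 with an unadjusted p, and 0 to 1 without 1 library. Genes called at 0 h were 807, and 1245 with quantile normalization, 191 with that time only, 1956 unadjusted and 162 to 894 without 1 library. At 4 h 3 were called, 0 with that time only and 1 to 3 without 1 library, and genes called were 2258, 245 and 680 to 2300. For the difference between times 1 was called, 2 with a trend and 0 to 1 without 1 library, and genes called were 478, 1187 and 170 to 688. With the replicate number as a replicate block it was 0, genes 28 and Stab1 adjusted p 0.174. Same-numbered samples correlated at 0.052 (WT) and 0.063 (cKO), so the numbers were not taken as pairs, and the block, which was fitted only for the stimulation effects and this difference, changed no other member call there. Over the alternatives Stab1's adjusted p for that difference ranged from 0.0077 to 0.174. The cause of these moves was not tested.

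The values that changed sign were not called. Cd36 at 0 h was 0.086 on the deposited scale, 0.031 with quantile normalization and -0.20 to 0.14 without 1 library. Cd36 at 4 h was 0.30 deposited, 0.084 equal totals, 0.093 quantile and -0.21 to 0.21 without 1 library. For the difference between times Scarb1 was 0.182, 0.093 and 0.238 under these scalings and -0.15 to 0.14 without 1 library, Cd36 -0.19 to 0.24 and Marco -0.22 to 0.56.

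Among called genes, the share higher in cKO was 57.0% at 4 h, 85.3% on the deposited scale and 67.6% with equal totals, and 55.0% at 0 h, 67.0% deposited. The share higher at 4 h was 48.3% in WT and 48.8% in cKO, but 17.6% and 20.7% deposited and 18.4% and 20.1% with equal totals. For the difference it was 61.5%, 75.0% deposited. Replicates differed by a median log2 of 0.125 to 0.235. DESeq2 was not run because the values are not counts.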

Other observations

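Receptors and bridging proteins for dying cells formed a list of 13, separate from the scavenger receptors. At 0 h 1 was called higher in cKO and 1 lower, beside 2.75% and 2.25% of all tested genes. At 4 h 2 were called lower, beside 6.02%. Itgav, a subunit of the vitronectin receptor, rose in cKO by 1.31 at 0 h (adjusted p = 0.009, limma), a call lost without either cKO library of that time (adjusted p up to 0.069). C1qc, a chain of the complement opsonin C1q, fell by 1.03 at 0 h (adjusted p = 0.0189) and by 0.65 at 4 h (adjusted p = 0.0252), and C1qb fell by 0.85 at 4 h (adjusted p = 0.0264). Each of these C1q calls was lost without WT replicate 1 of its own time or without any 1 cKO library, with adjusted p up to 0.111 for C1qc at 0 h, 0.126 for C1qc at 4 h and 0.129 for C1qb. At 4 h the C1qc call was also lost under all 3 other scalings and the C1qb call on the deposited scale. Mertk, the receptor tyrosine kinase of dying-cell uptake, had log2 differences of -0.16 and 0.22 and was not called.

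The 10 genes set as a check of stimulation, Nos2, Il12b, Il6, Tnf, Il1b, Cxcl9, Cxcl10, Gbp2, Irf1 and Socs3, were called higher at 4 h in both genotypes, beside 25.9% of all genes in WT and 25.0% in cKO. Between genotypes 1 of the 10 was called lower in cKO at 0 h, beside 2.25% of all genes. At 4 h 1 was called higher and 1 lower, beside 7.99% and 6.02%. In cKO at 4 h Nos2 was higher by 0.84 (adjusted p = 0.0066, limma) and held without any 1 library. Il1b fell by 1.28 at 4 h (adjusted p = 0.0345) and Cxcl10 by 1.96 at 0 h (adjusted p = 0.0291), calls lost without most single libraries, with adjusted p up to 0.145 and 0.139.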
